A study of Homo sapiens with 12 samples.

Results

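The 39 protein-coding genes of the human HOX clusters were taken from a table of raw gene counts by their names and biotype, out of 58735 genes in the table. HOX genes encode homeodomain transcription factors and lie in 4 clusters, HOXA, HOXB, HOXC and HOXD, where genes of the same paralogue number descend from a common ancestral gene. During development, low-numbered genes are switched on first and towards the head, while high-numbered genes are switched on later and towards the tail and the tips of the limbs. Adult skin fibroblasts keep a HOX pattern that reflects their body site, whereas the tissues of the face and jaws largely arise from cells that do not express HOX genes.

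The study compared HaCaT, a spontaneously immortalized keratinocyte line from skin, with TIGK, an immortalized keratinocyte line from gingiva that the labels call oral. Each line was grown to confluence in DermaLife K medium and was either left untreated or exposed for 3 h to hydrogen peroxide (H2O2) at 5 mM, which makes 4 groups of 3 libraries. Each body site was represented by 1 immortalized line, so line and site cannot be told apart, and nothing in the labels says that the replicates came from separate cultures, so p-values measure only the spread between these libraries. The treatment tags of treated replicates 2 and 3 read H2O3 and H2O4, whereas the treatment protocol gives H2O2 for all treated cells, and these libraries were used as H2O2.

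The 12 libraries held 30426401 to 49034244 counts, with a median of 34684154.5, and the HOX genes took 0.00640 to 0.0223% of them (1946 to 10381 counts per library). In 12 of 12 libraries more genes had 2 counts than 1, and 57.4 to 66.4% of the counts from 1 to 10 were even, so that 2 counts may stand for 1 read pair. All 10 keratinocyte markers listed were found in every group, and their summed level was 34159 to 41793 CPM (counts scaled to library size) over the 12 libraries. Of 10 fibroblast markers, COL1A2 was at 0 in every library, while the summed level was 11.1 to 15.2 CPM in untreated HaCaT and 43.1 to 45.6 in untreated TIGK. DCN (decorin, a matrix proteoglycan) was at 1.97 to 6.63 normalized counts in untreated HaCaT and 152 to 230 in untreated TIGK, and TWIST1 and FAP were also higher in TIGK. Melanocyte markers summed to at most 20.2, endothelial markers to at most 1.66 and immune cell markers to at most 0.157 CPM. The part of these markers in the HOX values below was not tested.

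The HOXA cluster spans chr7:27092993-27200106 and HOXB spans chr17:48528526-48729178 (both on the minus strand), and HOXC spans chr12:53938765-54056030 and HOXD chr2:176092891-176190907 (both on the plus strand), in build GRCh38. The 11 HOXA, 10 HOXB, 9 HOXC and 9 HOXD genes were not equally active. A mean of at least 10 counts over the 12 libraries was reached by 10 HOXA, 3 HOXB, 8 HOXC and 4 HOXD genes, and these 25 genes were tested. The other 14 genes had at most 27 counts in any library. They comprised HOXA13, HOXB1, HOXB2, HOXB3, HOXB5, HOXB8, HOXB9, HOXB13, HOXC5, HOXD1, HOXD3, HOXD4, HOXD12 and HOXD13. In the gene models of the table, 22 of the 39 genes overlap another HOX gene on the same strand and 24 overlap an antisense gene that was also counted. The strand setting and the handling of shared reads are not given in the sources used here, so the split of reads between overlapping genes is uncertain.

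Levels of different genes were compared per length, as counts divided by gene length and scaled to 1 common total in every library (a TPM-like level). In untreated HaCaT the summed level of the 39 genes was 293 ± 0.917 (SD, n = 3), of which HOXA held 43.8%, HOXC 38.8%, HOXD 12.4% and HOXB 4.93%. In untreated TIGK the sum was 124 ± 4.09 (SD, n = 3), of which HOXC held 55.6%, HOXA 25.6%, HOXB 10.0% and HOXD 8.69%. The summed level was therefore 2.35 times as high in HaCaT, and the ratio was 4.01 for HOXA, 3.38 for HOXD, 1.64 for HOXC and 1.16 for HOXB. These sizes depend on the scaling. Scaled to protein-coding genes alone, the sums were 320 and 132, with a ratio of 2.42. In CPM, without gene length, the ratio was 2.83, and it was 4.98 for HOXA, 3.98 for HOXD, 1.87 for HOXC and 1.22 for HOXB. In bulk RNA, fewer cells with a transcript and less of it per cell cannot be told apart.

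**Figure D1:**
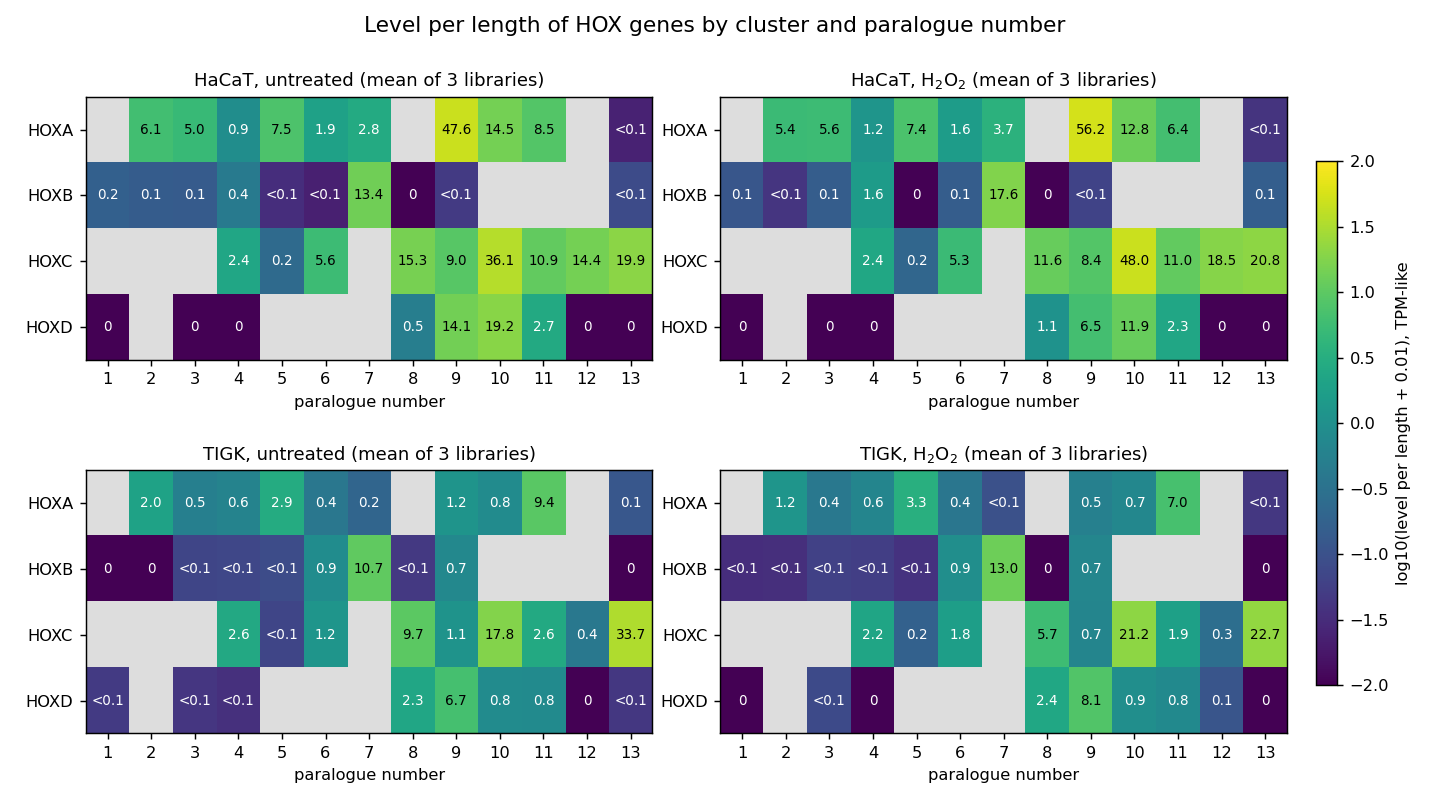
Mean level per length (TPM-like, n = 3 libraries) of the HOX genes shown, with clusters as rows and paralogue numbers as columns, 1 panel for each group; colour is log10(level + 0.01), the printed number is the level, and grey marks a position with no gene shown. HOXA9 is brightest in both HaCaT panels and HOXC13 in both TIGK panels, and most of HOXB and the low-numbered HOXD genes are dark in all panels.

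The order of the levels differed between the lines. In untreated HaCaT the highest was HOXA9 at 47.6 ± 1.15, followed by HOXC10 at 36.1 ± 1.57 (SD, n = 3), with no overlap between their libraries. In untreated TIGK the highest was HOXC13 at 33.7 ± 3.46, followed by HOXC10 at 17.8 ± 1.05 (SD, n = 3), again with no overlap. HOXA9 stood at 1.17 ± 0.321 in untreated TIGK (SD, n = 3). A level of at least 1 was reached by 21 HOX genes in untreated HaCaT and by 15 in untreated TIGK. Paralogues 9 to 13, the posterior group, held 67.3% ± 0.997 of the summed HOX level in untreated HaCaT and 61.3% ± 1.47 in untreated TIGK (SD, n = 3), so both lines had mostly posterior transcripts. Paralogues 4 to 8 held 17.4% and 25.5%, and paralogues 1 to 3 held 15.3% and 13.2%, in the same order.

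To learn which genes differed between the untreated lines, the counts were fitted with edgeR's quasi-likelihood test across 16618 genes, and a gene was called at a Benjamini-Hochberg adjusted p under 0.01. Of the 25 HOX genes tested, 18 were higher in HaCaT and 3 were lower (HOXB6, HOXC13 and HOXD8), while 29.1% of all genes tested were higher and 30.8% lower. HOXA6, HOXA7 and HOXB4, counted as higher, reached the count minimum only through HaCaT (at most 11 counts in any TIGK library). HOXB6, counted as lower, reached it only through TIGK (at most 10 counts in any HaCaT library). For such genes the filter itself set the direction of the call. The median log2 fold change was 1.79 over the 25 genes and -0.01 over all genes. By cluster, 8 of 10 HOXA genes were higher and 0 lower (edgeR, and 0 lower also at an unadjusted p under 0.05), 6 of 8 HOXC genes were higher and 1 lower, 3 of 4 HOXD genes were higher and 1 lower, and 1 of 3 HOXB genes was higher and 1 lower. HOXA4, HOXA11, HOXB7 and HOXC4 did not pass. By paralogue number, 3 of 3 genes of groups 1 to 3, 6 of 11 genes of groups 4 to 8 and 9 of 11 genes of groups 9 to 13 were higher in HaCaT, with median log2 fold changes of 1.79, 0.82 and 2.21.

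**Figure D2:**
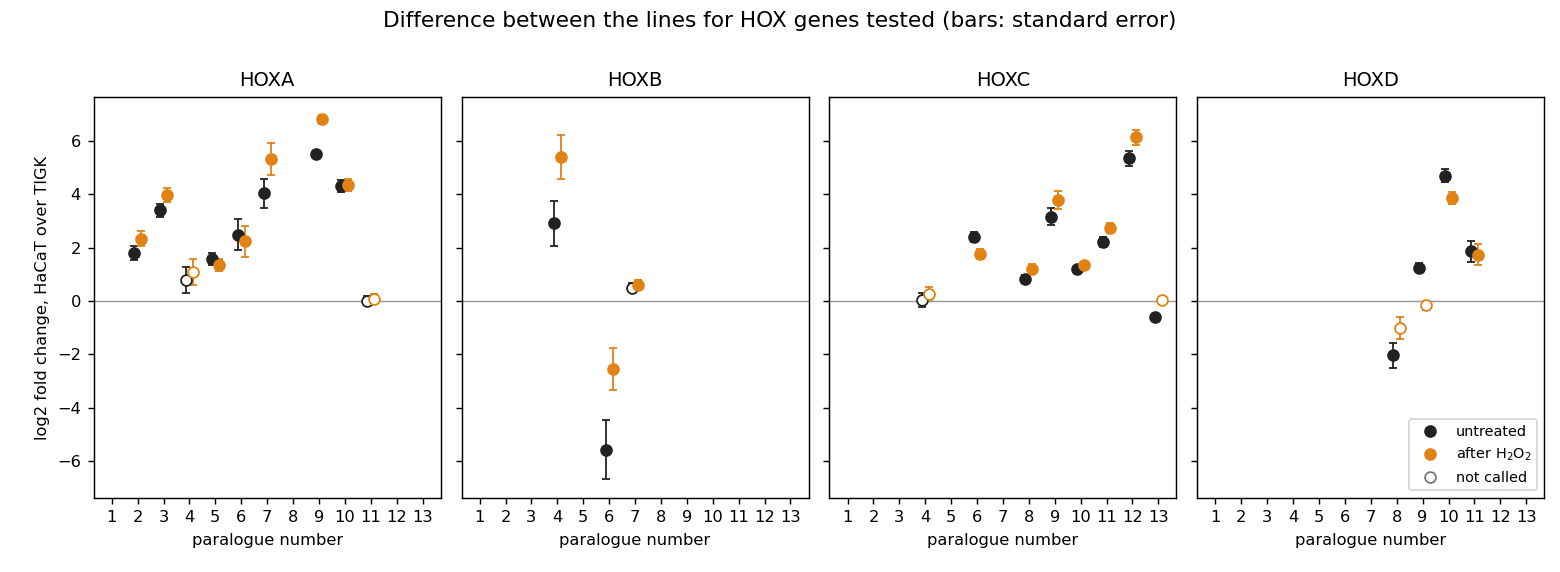
Log2 fold change of HaCaT over TIGK (y axis) against paralogue number (x axis) for the HOX genes tested and shown, 1 panel for each cluster; black points are untreated cells, orange points are cells after H2O2, bars are standard errors and open points did not pass an adjusted p of 0.01. In HOXA the difference is largest at HOXA9 and is near 0 at HOXA11, and in HOXC it is largest at HOXC12 while the neighbouring HOXC13 lies below 0 in untreated cells and near 0, at 0.06, after H2O2.

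Large differences were found in each of HOXA, HOXC and HOXD. HOXA9 (ENSG00000078399, chr7:27162435-27175180), a posterior gene also known as a partner of MEIS1 in leukaemia, had 1504, 1466 and 1549 normalized counts in untreated HaCaT and 42.7, 33.2 and 23.0 in untreated TIGK. HOXA9 was thus high in every HaCaT library, the groups did not overlap, and the difference was 45.4-fold (log2 fold change 5.51, SE 0.14, edgeR adjusted p = 4.99e-17). HOXA10 (chr7:27170591-27180261), which overlaps HOXA9 on the same strand, had 558, 537 and 594 against 19.3, 34.2 and 31.4 normalized counts, a 19.9-fold difference with no overlap (log2 fold change 4.31, SE 0.23, edgeR adjusted p = 3.02e-12). HOXA11 (chr7:27181510-27185223) is the next gene of the cluster, and its values were 182, 239 and 193 in untreated HaCaT and 181, 232 and 190 in untreated TIGK. These ranges overlapped throughout, with a log2 fold change of 0.02 (SE 0.16, edgeR adjusted p = 0.928). HOXA13, the last gene, had at most 11.5 normalized counts in any library.

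Toward the other end of the cluster, HOXA7 was at 70.3, 70.7 and 69.1 normalized counts in untreated HaCaT and at 0.0, 8.29 and 4.18 in untreated TIGK (16.5-fold). HOXA3, which patterns the pharyngeal arches, was at 204, 251 and 218 against 24.4, 19.7 and 18.8 (10.6-fold). No library of one line overlapped the other for either gene, and their log2 fold changes were 4.04 (SE 0.54) and 3.41 (SE 0.24). The HOXA7 value was 5.02 without untreated TIGK replicate 2. HOXA2, HOXA5 and HOXA6 were 3.47-fold, 2.97-fold and 5.64-fold higher in HaCaT, whereas HOXA4, at 4.07 to 19.1 normalized counts in the untreated lines, did not pass (log2 fold change 0.80, edgeR adjusted p = 0.168).

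In HOXC, a similar change between neighbours occurred at the last 2 genes. HOXC12 (ENSG00000123407, chr12:53954834-53958956) had 484, 459 and 559 normalized counts in untreated HaCaT and 6.10, 20.7 and 9.41 in untreated TIGK, with no overlap and a 41.1-fold difference (log2 fold change 5.36, SE 0.28, edgeR adjusted p = 2.61e-12). Without untreated TIGK replicate 2, the highest of its group, the log2 fold change was 6.01. HOXC13 (ENSG00000123364, chr12:53938765-53946544), which is required for hair and nail keratin expression, went the other way, with 484, 499 and 523 in untreated HaCaT and 711, 730 and 818 in untreated TIGK. Every TIGK library was above every HaCaT library, and the gene was lower in HaCaT (log2 fold change -0.59, SE 0.10, edgeR adjusted p = 2.84e-05). HOXC10, the second highest HOX gene in each untreated line, had 864, 919 and 855 against 374, 381 and 398 normalized counts, with no overlap and a 2.29-fold difference. HOXC9, HOXC6 and HOXC11 were 8.91-fold, 5.32-fold and 4.64-fold higher in HaCaT and HOXC8 was 1.76-fold higher. HOXC4, whose gene model overlaps those of HOXC5 and HOXC6, was at 59.6, 54.1 and 87.9 against 81.4, 49.8 and 62.7 (log2 fold change 0.06, edgeR adjusted p = 0.863).

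In HOXD, HOXD10 (ENSG00000128710, chr2:176108790-176119942) had 529, 576 and 512 normalized counts in untreated HaCaT and 28.5, 8.29 and 25.1 in untreated TIGK, with no overlap and a 25.9-fold difference (log2 fold change 4.70, SE 0.24, edgeR adjusted p = 2.29e-12). Its neighbour HOXD9 had 285, 291 and 249 against 117, 118 and 111 (2.38-fold), and HOXD11 had 86.3, 38.7 and 51.3 against 25.4, 10.4 and 12.5 (3.66-fold). HOXD8 was the reverse, at 10.7, 15.5 and 15.8 in untreated HaCaT and 61.0, 79.8 and 30.3 in untreated TIGK, and was 4.10-fold lower in HaCaT (edgeR adjusted p = 0.000587). The anterior genes HOXD1, HOXD3 and HOXD4 and the most posterior, HOXD12 and HOXD13, were at 0 in all 6 HaCaT libraries and at no more than 6.66 normalized counts in any TIGK library.

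HOXB was low in both lines apart from HOXB7, which had 209, 190 and 245 normalized counts in untreated HaCaT and 169, 135 and 149 in untreated TIGK. These groups did not overlap, yet the difference fell just outside the limit (log2 fold change 0.51, SE 0.16, edgeR adjusted p = 0.0106) and was called by DESeq2 (adjusted p = 0.0072) and without any 1 of untreated HaCaT replicate 2, untreated TIGK replicate 1, treated TIGK replicate 2 or the 3 treated HaCaT replicates (adjusted p 0.00671 to 0.00971). In all, HOXB7 passed in 9 of 20 alternatives, and in the others its edgeR adjusted p was as high as 0.0583. HOXB4, known for its role in blood stem cells, had 13.8, 26.5 and 9.87 in untreated HaCaT against 0.0, 4.15 and 2.09 in untreated TIGK (log2 fold change 2.92, SE 0.85, edgeR adjusted p = 0.00503), a call that was lost without untreated HaCaT replicate 2 (adjusted p = 0.0269), untreated TIGK replicate 1 (0.0249) or untreated TIGK replicate 3 (0.0151). Without untreated TIGK replicate 2 its log2 fold change was 3.86. HOXB6 had 1 count in all over the untreated HaCaT libraries and 60 over the untreated TIGK libraries, a ratio of 66.6 with a 95% exact conditional interval of 11.5 to 2676 that covers counting error only. The interval takes each count as a separate event and is too narrow if 2 counts stand for 1 read pair. HOXB9 was at 0.0 to 3.06 normalized counts in untreated HaCaT and 12.2 to 25.1 in untreated TIGK. It was under the count minimum, and with edgeR's own filter (filterByExpr) it was lower in HaCaT (log2 fold change -3.66, adjusted p = 0.00178). HOXB13, a gene of the tail end, was at 0.0 in all 6 TIGK libraries and at no more than 7.74 normalized counts in HaCaT, and HOXB3 reached at most 18.9.

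The starts of HOXA9, HOXA10, HOXA11 and HOXD10 are shown because HOXA9, HOXA10 and HOXD10 were among the genes that differed most between the lines and HOXA11, next to HOXA10, did not pass. RefSeq (GRCh38.p14) gave a start for 20 of the 39 genes, and the 250 bases before it are printed 5′ to 3′ on the strand of the gene. Capitals mark TAAT on either strand, the core bound by most homeodomains, and CACGTG, the palindromic E-box. The HOXA9 window is chr7:27165538-27165787, that of the downstream of the 2 HOXA10 starts is chr7:27174321-27174570, and that of HOXA11 is chr7:27185233-27185482, all on the minus strand. The HOXD10 window is chr2:176116528-176116777 on the plus strand.
HOXA9: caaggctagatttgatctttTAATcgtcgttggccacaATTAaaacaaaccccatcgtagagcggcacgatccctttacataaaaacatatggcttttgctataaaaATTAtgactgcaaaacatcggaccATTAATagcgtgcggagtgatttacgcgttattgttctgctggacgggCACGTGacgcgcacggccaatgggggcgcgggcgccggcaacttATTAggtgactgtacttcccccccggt
HOXA10: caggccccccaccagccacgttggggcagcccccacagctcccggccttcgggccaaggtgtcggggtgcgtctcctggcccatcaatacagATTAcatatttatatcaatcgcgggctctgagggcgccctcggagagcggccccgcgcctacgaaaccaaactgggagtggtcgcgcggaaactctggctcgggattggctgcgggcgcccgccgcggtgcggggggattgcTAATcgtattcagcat
HOXA11: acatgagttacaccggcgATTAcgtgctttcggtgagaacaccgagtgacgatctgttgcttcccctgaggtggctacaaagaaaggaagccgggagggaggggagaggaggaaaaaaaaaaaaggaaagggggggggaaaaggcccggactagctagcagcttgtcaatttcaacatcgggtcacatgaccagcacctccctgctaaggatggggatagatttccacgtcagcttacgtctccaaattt
HOXD10: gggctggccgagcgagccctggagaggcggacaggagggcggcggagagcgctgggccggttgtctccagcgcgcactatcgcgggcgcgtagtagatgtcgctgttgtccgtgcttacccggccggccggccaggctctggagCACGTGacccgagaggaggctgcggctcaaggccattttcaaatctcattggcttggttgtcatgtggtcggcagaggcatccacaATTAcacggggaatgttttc
TAAT or its reverse ATTA occurred 6 times before HOXA9 (overlapping matches included), 2 times before HOXA10 and 1 time before each of HOXA11 and HOXD10, and 47.4% of 35116 windows of this length in the RefSeq table held at least 1. CACGTG occurred 1 time before HOXA9 and 1 time before HOXD10 and was not found in the other 2 windows printed, against 6.35% of all windows. It was found in 8 of the 27 windows of HOX genes, where HOXC4 and HOXC5 have the same window. Besides those of HOXA9 and HOXD10, these were 1 window of HOXA3 and that of HOXD11, both higher in HaCaT. The others were those of HOXA4, which did not pass, and of HOXD1, HOXD3 and HOXD13, which were at 0 in every HaCaT library. A relation of the motif to the line difference was not tested. TATAAA, the TATA box, occurred 1 time before HOXA9 and 1 time before HOXA10 on either strand, against 10.7% of all windows, and TGATTNAT, a composite HOX and PBX site, was found in none of the 4, against 2.48% of all windows. CACGTG was chosen after the windows had been read. The windows held 20, 24, 11 and 23 CpG dinucleotides for HOXA9, HOXA10, HOXA11 and HOXD10, where the median window of the table held 11. The window of the other HOXA10 start, not printed, held 0 TAAT, 0 CACGTG, 1 TATAAA and 19 CpG dinucleotides. These matches are descriptions of the reference sequence, and no methylation or binding was measured.

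After 3 h of H2O2 most of the HOX genes tested still differed between the lines. In treated cells, 18 of the 25 genes were higher in HaCaT and 1 was lower, against 30.2% and 29.8% of all genes tested, with a median log2 fold change of 1.73 over the HOX genes and 0.02 over all genes. These counts include HOXA6, HOXA7, HOXB4 and HOXB6, which reached the count minimum through 1 line only. HOXA9 was at 1734, 1849 and 1735 normalized counts in treated HaCaT and at 10.4, 17.1 and 18.2 in treated TIGK, a 112-fold difference (log2 fold change 6.81, SE 0.15, edgeR adjusted p = 1.22e-17). HOXC12 was 70.2-fold higher in HaCaT, at 589, 720 and 622 against 3.48, 5.71 and 15.8, with a log2 fold change of 6.13 that was 7.01 without treated TIGK replicate 3. HOXA10 (20.2-fold), HOXA3 (15.8-fold), HOXD10 (14.5-fold) and HOXC9 (13.9-fold) were also higher in HaCaT. HOXB4 and HOXA7 were near 0 in treated TIGK, so that the size of their difference rested on single libraries. HOXB4 was at 4.64, 0.0 and 0.0 normalized counts there (log2 fold change 5.41, SE 0.83), and the value was 8.93, 4.81 or 4.69 without treated TIGK replicate 1, 2 or 3. HOXA7 was at 0.0, 1.90 and 3.96 (log2 fold change 5.32, SE 0.59), and the value was 6.25 without treated TIGK replicate 3. HOXB7 was now called (log2 fold change 0.62, edgeR adjusted p = 0.00208). It lost the call without treated HaCaT replicate 3 (0.0181), treated TIGK replicate 1 (0.0126) or treated TIGK replicate 3 (0.0172). The HOXB7 responses did not differ between the lines at the limit (difference, TIGK minus HaCaT, -0.12, edgeR adjusted p = 0.809). HOXA6 was 4.75-fold higher and lost the call without treated HaCaT replicate 3 (0.0110), treated TIGK replicate 1 (0.0111) or treated TIGK replicate 2 (0.0140), while its log2 fold change of 2.25 was 3.29 without treated TIGK replicate 3.

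HOXD9, HOXC13 and HOXD8 were called in the untreated lines and not after H2O2. HOXD9 was at 134, 115 and 128 normalized counts in treated HaCaT and 117, 131 and 169 in treated TIGK, which overlapped (log2 fold change -0.16, edgeR adjusted p = 0.414). HOXC13 was at 550, 568 and 456 against 491, 501 and 519, which also overlapped (log2 fold change 0.06, adjusted p = 0.629). HOXD8 was at 35.6, 40.8 and 10.7 against 63.8, 64.7 and 45.9 and did not pass (edgeR adjusted p = 0.0434). The gene called lower was HOXB6, at 0.0, 11.7 and 0.0 against 17.4, 23.8 and 26.1 (log2 fold change -2.55, SE 0.77, edgeR adjusted p = 0.00684), and it lost the call without treated HaCaT replicate 1 (0.0249) or replicate 3 (0.0266), or without treated TIGK replicate 2 (0.0152) or replicate 3 (0.0202). Its HaCaT counts all came from treated replicate 2 (10 counts), without which the log2 fold change was -7.54, and the value was -1.95 without replicate 3. The HaCaT to TIGK ratio of the summed level per length was 4.64 for HOXA, 2.24 for HOXC, 1.75 for HOXD and 1.34 for HOXB in treated cells. The HOXA and HOXC ratios were thus above those of the untreated lines and the HOXD ratio was below, differences for which no test was made.

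**Figure D3:**
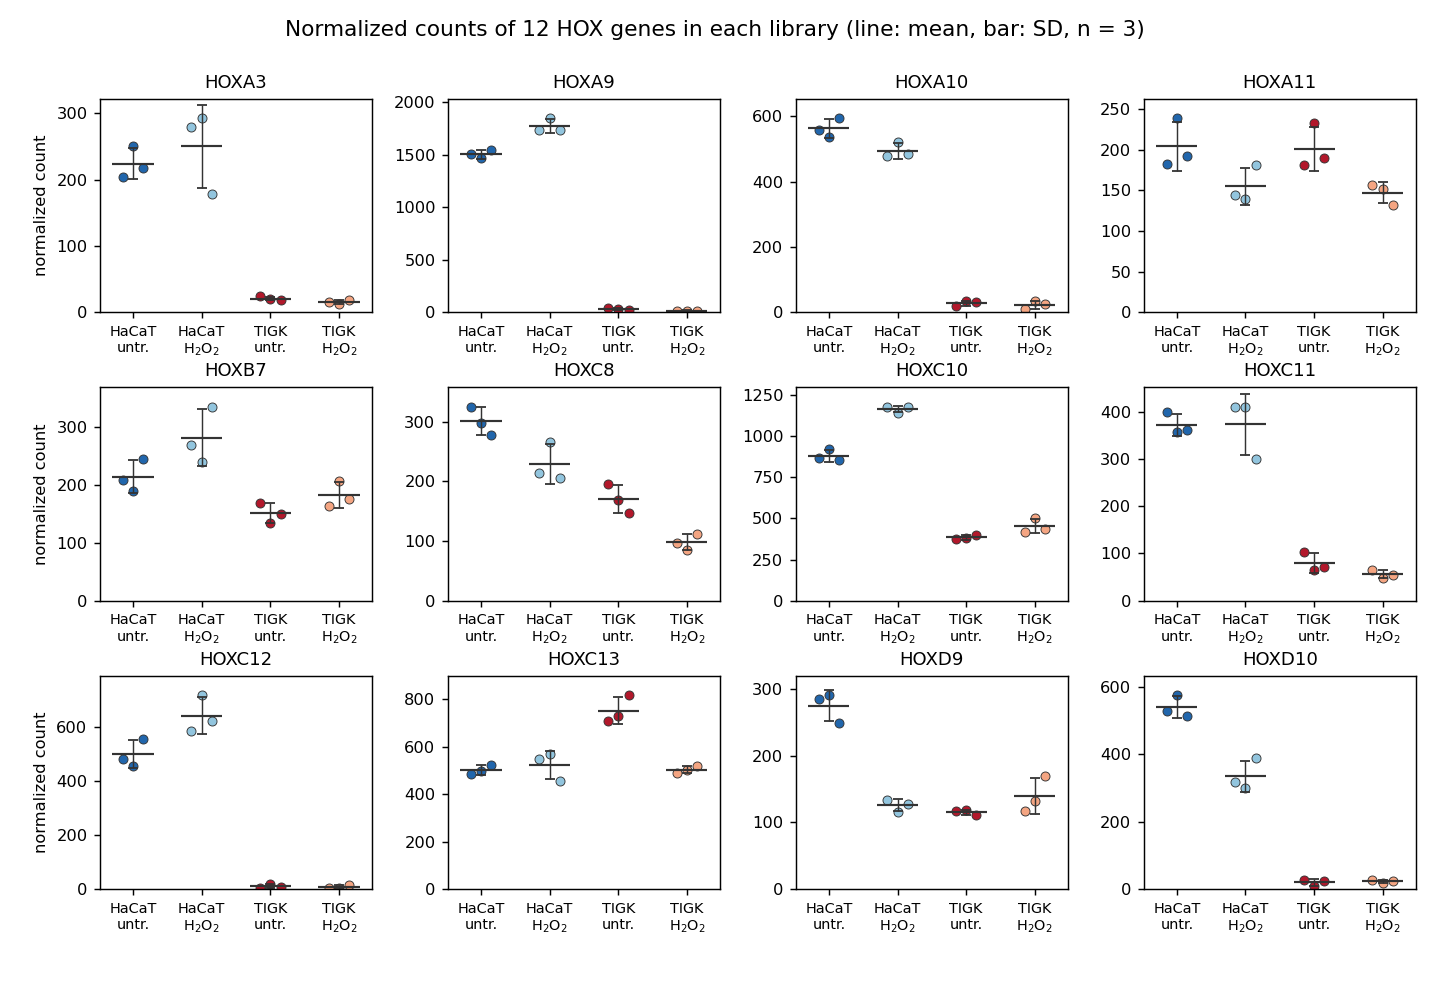
Normalized count (y axis, from 0) of 12 HOX genes in each of the 12 libraries, by group on the x axis; points are libraries, the horizontal line is the group mean and the bar its SD (n = 3). HOXA9, HOXA10, HOXC12 and HOXD10 lie under 43 in all 6 TIGK libraries, HOXA11 overlaps between the untreated lines, HOXD9 falls in treated HaCaT and HOXC13 falls in treated TIGK.

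The H2O2 response itself was small for most HOX genes. In HaCaT, 1 of the 25 genes rose and 2 fell, against 18.9% and 15.2% of all genes tested, and the median log2 fold change was -0.003 over the HOX genes and 0.04 over all genes. HOXC10 rose from 864, 919 and 855 to 1174, 1140 and 1179 normalized counts, with no overlap (log2 fold change 0.41, SE 0.08, edgeR adjusted p = 0.000538). HOXD9 fell from 285, 291 and 249 to 134, 115 and 128, with no overlap (log2 fold change -1.13, SE 0.16, edgeR adjusted p = 1.96e-05). Its neighbour HOXD10 fell from 529, 576 and 512 to 318, 301 and 388, also with no overlap (log2 fold change -0.68, SE 0.18, edgeR adjusted p = 0.00425). The HOXD10 call was lost when any untreated HaCaT replicate (adjusted p 0.0142, 0.0226 and 0.0115 for replicates 1, 2 and 3) or treated HaCaT replicate 1 (0.0110) or 2 (0.0198) was left out, with log2 fold changes of -0.63 to -0.72. HOXB4 went from 13.8, 26.5 and 9.87 to 81.2, 67.6 and 32.0 without overlap but did not pass (log2 fold change 1.86, SE 0.59, edgeR adjusted p = 0.0147). It was called by DESeq2 (adjusted p = 0.00477) and, among other settings, without treated HaCaT replicate 3 (log2 fold change 2.17, adjusted p = 0.00661) or treated TIGK replicate 1 (1.86, adjusted p = 0.00908). In all, HOXB4 passed in 6 of 20 alternatives. In the others its edgeR adjusted p was as high as 0.0638, and its log2 fold change was as low as 1.55 over the alternatives.

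In TIGK, 0 of the 25 genes rose and 3 fell by edgeR, against 10.2% and 12.9% of all genes tested, with a median log2 fold change of -0.22 over the HOX genes and 0.01 over all genes. At an unadjusted p under 0.05, 2 genes were above 0, and DESeq2 also called 0 genes higher. HOXC13, the highest HOX gene of untreated TIGK, fell from 711, 730 and 818 to 491, 501 and 519 normalized counts, with no overlap (log2 fold change -0.58, SE 0.10, edgeR adjusted p = 0.000145). HOXC8 fell from 195, 169 and 147 to 96.3, 85.6 and 112 (log2 fold change -0.79, SE 0.17, edgeR adjusted p = 0.00116), a call lost without treated TIGK replicate 2 (log2 fold change -0.67, adjusted p = 0.0113). HOXA9 fell from its low level of 42.7, 33.2 and 23.0 to 10.4, 17.1 and 18.2 (log2 fold change -1.07, SE 0.24, edgeR adjusted p = 0.00214). That call was lost without untreated replicate 1 (log2 fold change -0.83, adjusted p = 0.0179) or treated replicate 1 (-0.89, adjusted p = 0.0119).

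**Figure D4:**
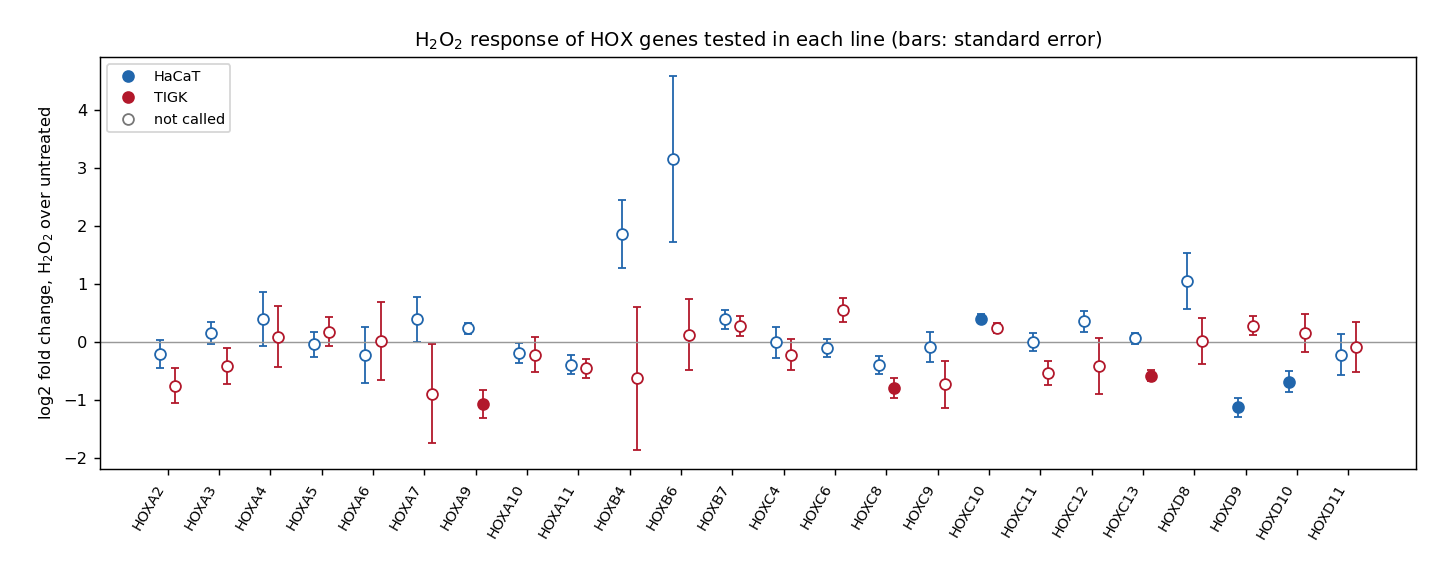
Log2 fold change of H2O2-treated over untreated cells (y axis) for the HOX genes tested and shown (x axis), in HaCaT (blue) and TIGK (red); bars are standard errors and open points did not pass an adjusted p of 0.01. The filled points are HOXC10, HOXD9 and HOXD10 in HaCaT and HOXA9, HOXC8 and HOXC13 in TIGK, and the long bars of HOXB4 and HOXB6 belong to genes with few counts.

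Whether a gene responded differently in the lines was tested by the interaction of line and treatment. The response of TIGK was above that of HaCaT for 1 of the 25 genes and below it for 2, against 2.32% and 2.98% of all genes tested. HOXD9 had the higher response in TIGK, by 1.41 on the log2 scale (SE 0.23, edgeR adjusted p = 0.000528), with log2 fold changes of 0.28 in TIGK and -1.13 in HaCaT. HOXA9 had the lower response in TIGK (difference -1.30, SE 0.26, edgeR adjusted p = 0.00288), with log2 fold changes of -1.07 in TIGK and 0.23 in HaCaT, of which the second did not pass. HOXC13 also had the lower response in TIGK (difference -0.64, SE 0.14, edgeR adjusted p = 0.00537), with log2 fold changes of -0.58 in TIGK and 0.06 in HaCaT. The difference of the HOXD10 responses, 0.84 (SE 0.37), and that of the HOXC8 responses, -0.40 (SE 0.23), did not pass (edgeR adjusted p = 0.161 and 0.289).

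The HOXD9 difference was called with any 1 library left out, whereas the others were not. HOXA9 lost the call without untreated TIGK replicate 1 (difference -1.07, adjusted p = 0.0183) or 2 (-1.24, 0.0131) or treated TIGK replicate 1 (-1.13, 0.0118) or 2 (-1.30, 0.0115). HOXC13 lost it without any 1 of untreated HaCaT replicates 1 and 2, treated HaCaT replicates 1 and 2, untreated TIGK replicates 2 and 3 and the 3 treated TIGK replicates, with differences of -0.52 to -0.64 and adjusted p of 0.0133 to 0.0288.

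Antisense and other non-coding genes within 10000 bases of the clusters mostly differed between the untreated lines in the direction of the HOX genes. Of 63 such genes, 12 were tested, and 8 were higher in HaCaT, 1 was lower and 3 did not pass (against 29.1% higher and 30.8% lower over all genes tested), with a median log2 fold change of 2.08. HOTAIRM1, a non-coding gene of the HOXA cluster, was at 312, 311 and 293 normalized counts in untreated HaCaT and 51.9, 68.4 and 71.1 in untreated TIGK (log2 fold change 2.26, SE 0.23, edgeR adjusted p = 4.43e-08). HOXA-AS2 (log2 fold change 4.07) and AC012531.1 (2.85) were also higher in HaCaT, and HOXC13-AS, the antisense neighbour of HOXC13, did not pass (-0.48, edgeR adjusted p = 0.0526). The gene that was lower was HAGLR, an antisense gene of the HOXD cluster, named here after its values were seen. It was at 0.0 in every untreated HaCaT library and at 31.5, 34.2 and 29.3 in untreated TIGK, at least 11.1-fold higher in TIGK against a floor of 3 counts per library. HAGLR reached the count minimum through TIGK only. HOXA-AS2, HOXA10-AS, HOXA-AS3 and HOXD-AS2 reached it through HaCaT only (at most 11 counts in any TIGK library). For such genes the filter itself set the direction of any call. AC012531.1, HOTAIR, HOXC-AS3 and HOXC-AS1 also had most of their counts in HaCaT, with at most 29 in any TIGK library. After H2O2, AC012531.1 fell in HaCaT (log2 fold change -1.80, edgeR adjusted p = 0.00486) and HOXC-AS1 fell in TIGK (-2.31, edgeR adjusted p = 0.00884). The HOXC-AS1 counts in TIGK went from 7, 12 and 14 to 2, 1 and 4, which is near the floor, so the size of its fall is uncertain. Reads of these genes and of their sense partners could not be separated if strand was ignored. The host genes of miRNAs in the clusters are in the table, but polyA libraries do not measure mature miRNAs.

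The 3 protein-coding genes on each side of each cluster gave a comparison for the borders. Around HOXA, CBX3, SKAP2, HIBADH and TAX1BP1 were higher in untreated HaCaT by 0.49 to 0.99 on the log2 scale, SNX10 was lower by 0.98 and EVX1 was not tested. Around HOXB, HOXC and HOXD the median log2 fold changes of the flanking genes tested were 0.13 (4 genes), -0.28 (6 genes) and -0.11 (5 genes), and CBX5, beside HOXC, had the lowest value at -1.22. The median around HOXA was 0.79 (5 genes), and the HOX genes themselves had medians of 2.14, 0.51, 1.70 and 1.56 in HOXA, HOXB, HOXC and HOXD.

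HOX proteins bind DNA with TALE cofactors of the PBX and MEIS families. Of 9 TALE genes, 8 were tested, and 1 was higher in untreated HaCaT, 3 were lower and 4 did not pass (against 29.1% higher and 30.8% lower over all genes tested), with a median log2 fold change of 0.001. MEIS3 was at 251, 208 and 261 normalized counts in untreated HaCaT against 48.8, 36.3 and 20.9 in untreated TIGK (log2 fold change 2.76, edgeR adjusted p = 3.85e-09). MEIS1 (log2 fold change -1.18, edgeR adjusted p = 1.84e-05) and PBX4 (-0.93, edgeR adjusted p = 0.000687) were lower in HaCaT. After H2O2, MEIS2 rose in HaCaT (log2 fold change 0.80, edgeR adjusted p = 4.82e-05) and in TIGK (0.88, edgeR adjusted p = 2.76e-05), PBX3 rose in HaCaT, and PBX2 and PKNOX1 rose in TIGK.

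Polycomb complexes keep silent HOX genes silent, and MLL complexes and H3K27 demethylases oppose them. Of 19 Polycomb genes, 4 were higher in untreated HaCaT, 11 were lower and 4 did not pass, with a median log2 fold change of -0.40, where 29.1% of all genes tested were higher and 30.8% lower with a median of -0.01. CBX7 (log2 fold change -1.74) and JARID2 (-1.24) were lower and BMI1 (1.55) was higher, and EZH2, the H3K27 methyltransferase, was lower (-0.56). EZH2 lies outside the rule for named genes and was named after its value was seen. Of 11 MLL and H3K27 demethylase genes, 4 were higher, 2 were lower and 5 did not pass, with a median of 0.13, and KDM6A, an H3K27 demethylase, was higher (log2 fold change 0.91, edgeR adjusted p = 1.17e-09). Retinoic acid induces HOX genes in embryos. Of 12 retinoic acid and CDX genes, 7 were tested, 4 were higher, 1 was lower and 2 did not pass, and CYP26B1, which degrades retinoic acid, was at 1577, 1491 and 1581 normalized counts in untreated HaCaT against 393, 311 and 285 in untreated TIGK (log2 fold change 2.23, edgeR adjusted p = 3.85e-13).

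Homeobox genes of the head and jaws that lie outside the HOX clusters showed the opposite direction. Of 21 such genes, 15 were tested, and 14 were lower in untreated HaCaT and 1 was higher (against 29.1% higher and 30.8% lower over all genes tested), with a median log2 fold change of -1.63. The exception was DLX3 (log2 fold change 0.50), named after its value was seen. BARX1, a gene of the developing teeth and jaws, was at 0.0 in all 6 HaCaT libraries and at 1500, 1403 and 1439 normalized counts in untreated TIGK, at least 507-fold higher in TIGK against a floor of 3 counts per library. LHX6 was at 9.93, 7.74 and 5.92 in untreated HaCaT against 1431, 1405 and 1474 in untreated TIGK (log2 fold change -7.46, edgeR adjusted p = 4.45e-16), and DLX5 (-1.79) was also lower. The untreated lines thus differed in opposite directions in the HOX genes, of which 18 of 25 were higher in HaCaT, and in this list. In each set some genes, such as HOXB4 and BARX1, reached the count minimum through 1 line only.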

How the data were processed

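PolyA RNA of 12 libraries was sequenced as read pairs, and the authors deposited raw counts per gene on GRCh38, made per the submitters' notes and the methods with HISAT2 (2.0.5 in one source, 2.0.0 in another), StringTie 1.3.3b and featureCounts 1.5.0-p3. The annotation release, the strand setting and the treatment of multiply mapped reads are not given in the sources used here. The 4 other deposited tables hold the authors' own fold changes and p-values and were not used.

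Counts were scaled by TMM, genes with a mean count of at least 10 were kept (16618), and all 4 groups entered 1 edgeR 4.0.16 quasi-likelihood fit in R 4.3.3 (limma 3.58.1) where p-values were adjusted by Benjamini-Hochberg across those genes and called under 0.01. Normalized counts are TMM-scaled to the mean effective library size. The SE of a log2 fold change is its size divided by the square root of its F. Depth was 30426401 to 49034244 counts, and intervals and floors (3 counts) cover counting error only. They take each count as a separate event, which does not hold if read pairs were counted by mate. DESeq2 1.42.0, other scalings and filters, limits, the groups alone, a replicate block and each library left out were alternatives, and halved counts were added after the data had been seen. Scripts were tested on simulated data, with changes set between the lines. Replicates of a group differed by more than sampling noise (chi-square per degree of freedom 4.53 to 29.7 over 12 pairs). Figures used Python 3.11.15, numpy 2.4.6 and matplotlib 3.10.9.

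All 39 genes entered the counts and sums, and results on some single genes are not reported here. Values were given for those reaching 100 normalized counts in their highest group mean, and for lower ones where the lines lay on opposite sides of the floor or a response passed. In other lists the 1 to 4 genes with the largest absolute log2 fold change between the untreated lines and at least 100 normalized counts were named, and genes named for their H2O2 response, TWIST1, FAP, COL1A2, DCN and flanking genes were named after their values were seen. The members and lists were chosen with earlier results of these data known. Promoter windows were printed in place of the protein sequences that had been planned.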

Additional observations from a re-analysis of the deposited data

Results flagged for a closer look

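In 3 HOX genes the H2O2 response of TIGK differed from that of HaCaT by the test of the interaction between line and treatment (edgeR, adjusted p under 0.01). The difference, TIGK minus HaCaT, was 1.41 on the log2 scale for HOXD9 (edgeR adjusted p = 0.000528), which fell in HaCaT by 1.13 and did not pass in TIGK. It was -1.30 for HOXA9 (edgeR adjusted p = 0.00288), which in TIGK started from 23.0 to 42.7 normalized counts, and -0.64 for HOXC13 (edgeR adjusted p = 0.00537). The HOXA9 and HOXC13 differences each lost the call when single libraries were left out. With 3 libraries in a group, no search for outlying libraries was made.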

How the results depend on the processing

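Of 1141 recomputed values for 52 results on single HOX genes, 1072 kept their direction and side of the limit, 24 newly passed, 45 no longer passed and 0 reversed. Only results called in at least 1 fit were included, so the 0 does not cover genes that were never called. The alternatives that changed only the limit kept the log2 fold change of the main fit and could not reverse. The counts between untreated lines (18 higher and 3 lower) and that of 18 higher after H2O2 stayed within 1.5 times under every alternative run, and the other counts moved as follows. After H2O2, 1 gene was lower in HaCaT, against 2 with no filter, 2 with filterByExpr, 0 with the groups compared alone, 2 at an adjusted p under 0.05 and 0 to 1 with a library left out. In HaCaT, 1 gene rose, against 2 with DESeq2, with no filter, with the groups alone and with halved counts (added after the data were seen), 3 at an adjusted p under 0.05, 0 when a log2 fold change over 1 was also asked for, and 1 to 2 with a library left out. In HaCaT, 2 genes fell, against 4 at an adjusted p under 0.05, 1 with the log2 limit and 1 to 3 with a library left out. In TIGK, 0 genes rose and 3 fell, against 2 that rose at an adjusted p under 0.05 and 1 that fell with the log2 limit. For the lower difference of responses, 2 genes were called, against 1 with the replicate block, 1 with the log2 limit and 0 to 2 with a library left out. The HOXA9 fall in TIGK and the HOXB6 difference after H2O2 were also lost with the groups alone (adjusted p 0.0493 and 0.0175). The cause of these changes was not tested.

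Samples with the same number showed no sign of a pairing (correlations of their deviations -0.0319 to 0.0257, 0 of 12 pairs over 0.1). All genes tested weighed the same in these correlations, so a small shared effect could be missed. With the replicate block, HOXC13 lost its difference of responses (-0.64, adjusted p = 0.0137). Over all genes, the difference of responses was higher in TIGK for 385 genes by edgeR and 685 by DESeq2. The groups alone could not be run for that difference, which needs all 4 groups. The part of depth in the values of genes with few counts, such as HOXB4 and HOXB6, was not tested; with halved counts the HOXB4 response of HaCaT passed (adjusted p = 0.00299).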
